A study of Rattus norvegicus with 12 samples.

Results

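Fos, Fosb, Fosl1, Fosl2, Jun, Junb and Jund are the rat genes of the Fos and Jun families, whose proteins make up the transcription factor AP-1. Their probes were taken by name, as all probes other than control probes whose gene name on the array is one of these symbols. This gave 8 of 41012 probes, for 7 of 33233 gene names, with 2 probes for Jund and 1 for each other gene. The Jun probe is printed on 10 spots of every array. All 8 probes were kept, with no filter on low signal.

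AP-1 is a pair of proteins joined through their leucine zippers, and the basic region beside each zipper holds the DNA. Jun proteins can pair with each other or with a Fos protein, whereas Fos proteins need a Jun partner, and Fos-Jun pairs hold the AP-1 site more firmly. Several of the genes are immediate early genes, switched on in neuroendocrine cells by growth factors and by hormones that raise cyclic AMP or activate ERK, without a need for new protein.

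PC12 cells were derived from a rat pheochromocytoma, a tumor of adrenal chromaffin cells. They were treated with the neuropeptide PACAP38 at 1e-07 M for 5, 10, 15, 30, 60 or 120 min, and each time point has its own control without PACAP38. RNA of either kind was pooled (n = 6) and both pools were hybridized together on 2 arrays with the dyes exchanged, so that a time point is 1 replicate with 2 technical readings. Array readings are given below in the order PACAP38 in Cy5, then PACAP38 in Cy3, and no test between the RNAs exists at a single time point.

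Of 7 chromaffin cell markers, Th, Dbh, Ddc, Chga, Chgb, Slc18a1 and Cyb561, 7 were well above background in all 24 channels. Of 6 glial markers 5 were above it in none, and of 6 fibroblast markers 2 in none and 2 in all. In the range over the 12 arrays, 39.8 to 48.9% of the spots were well above background with PACAP38 and 38.4 to 49.6% with control, and 0 spots were saturated. The number of arrays limits the precision.

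The probes below lie in coding sequence and are shown because all values of these genes rest on 60 bases each. The Fos probe (NM_022197) is at chr6:109561099-109561158, plus strand, of rat build rn4, the Fosb probe (NM_001256509) at chr1:78668672-78668731, minus strand, the Junb probe (NM_021836) at chr19:24832781-24832840, plus strand, and the second Jund probe (NM_138875) at chr16:19240333-19240392, minus strand. The Fosl2 probe (NM_012954) has no position in the annotation of the array. No capitals are used, since no part of a probe is singled out.
Fos probe: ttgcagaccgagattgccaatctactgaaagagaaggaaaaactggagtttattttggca
Fosb probe: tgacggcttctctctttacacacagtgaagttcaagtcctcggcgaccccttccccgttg
Fosl2 probe: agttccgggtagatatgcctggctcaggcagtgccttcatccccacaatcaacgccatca
Junb probe: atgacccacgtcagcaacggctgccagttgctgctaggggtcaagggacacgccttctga
Jund probe A_43_P15517: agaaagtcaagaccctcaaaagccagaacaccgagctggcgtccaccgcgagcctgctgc
Of the remaining probes, given by position only, that of Fosl1 (NM_012953) is at chr1:208098827-208098886, plus strand, that of Jun (NM_021835) at chr5:115358764-115358823, minus strand, and the brighter Jund probe A_42_P537443, which is the reported one, at chr16:19239704-19239763, minus strand.

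RefSeq promoter sequence, on build GRCr8, was at hand for 5 of the 7 genes, Fosb, Fosl1, Fosl2, Junb and Jund. The 250 bases before the start are printed for a gene whose fold appeared late, one whose fold appeared early and one that was never counted. Capitals mark TGACG on either strand, the core of the cyclic AMP response element, including the full palindrome TGACGTCA in Jund.
Fosl1 promoter, GRCr8 chr1:212183635-212183884, plus strand: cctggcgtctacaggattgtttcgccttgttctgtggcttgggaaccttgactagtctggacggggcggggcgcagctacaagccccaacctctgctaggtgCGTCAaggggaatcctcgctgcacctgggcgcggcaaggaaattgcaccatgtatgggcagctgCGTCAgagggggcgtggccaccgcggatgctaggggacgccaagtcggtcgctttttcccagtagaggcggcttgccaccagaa
Junb promoter, GRCr8 chr19:40080876-40081125, plus strand: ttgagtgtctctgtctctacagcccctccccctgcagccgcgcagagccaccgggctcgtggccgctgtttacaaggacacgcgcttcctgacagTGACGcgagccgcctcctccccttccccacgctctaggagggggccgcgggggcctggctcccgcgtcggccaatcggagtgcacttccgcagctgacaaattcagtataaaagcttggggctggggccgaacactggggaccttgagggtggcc
Jund promoter, GRCr8 chr16:18769772-18770021, minus strand: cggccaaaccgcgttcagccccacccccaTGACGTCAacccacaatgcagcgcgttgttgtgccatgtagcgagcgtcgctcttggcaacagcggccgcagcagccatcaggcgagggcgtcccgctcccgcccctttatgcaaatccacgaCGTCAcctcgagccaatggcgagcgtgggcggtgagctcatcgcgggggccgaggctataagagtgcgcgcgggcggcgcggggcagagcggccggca
In Fosl1, TGACG lies 148 to 144 and 84 to 80 bases before the start, in Junb 155 to 151 bases before it, and in Jund 98 to 94 bases before it beside the palindrome at 221 to 214, which holds TGACG on both strands. The windows of Fosb and Fosl2, which are not printed, have no match of TGACG. Among all 33469 promoters of this length 18.2% hold TGACG and 1.59% hold TGACGTCA, on either strand. TATAAA, found in 12.9% of them, is in Junb at 49 to 44 bases before the start and in Fosb at 180 to 175. GGGCGG, found in 30.5%, is in Fosl1, Fosl2 and Jund. The AP-1 site TGACTCA (4.05% of promoters) and the CArG box bound by serum response factor (1.5%) have no match in these 5 windows. These are matches of letters and were not tested as binding sites.

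A gene was counted as higher when its reported probe was at least 2-fold higher with a spot p-value under 0.01 on both arrays. By this rule 0 of the 7 genes were counted after 5 min, as were 0% of all probes. After 10 min 3 of 7 were counted (Fos, Jun and Junb), against 0.0659% of all 40984 probes. After 15 min Fosl2 joined them by its array readings, giving 4 of 7 against 0.0902%. Its control was then not well above background on either array and its bound was 1.78-fold, under the limit. After 30 min 5 of 7 were counted, with Fosl1 as the fifth, against 0.249%, and after 60 min the same 5 genes against 0.871%. After 120 min 4 of 7 were counted against 1.95%, Jun being below the limit. None of the 7 was counted as lower at any time point, where the shares of all probes were 0% after 5 and 10 min, 0.0268% after 15 min, 0.102% after 30 min, 0.376% after 60 min and 1.53% after 120 min. Fosb and Jund were never counted. In bulk RNA, fewer cells with a transcript and less of it per cell cannot be told apart. The median log2 fold of the 7 genes went from -0.02 after 5 min to 2.39 after 30 min and 2.77 after 120 min, while the median of all 33233 genes was -0.03, 0.033 and 0.020 at these times. These medians take array readings as they are, also where an RNA was not well above background. Normexp background correction adds an offset of 50, which by construction draws the ratios of dim spots toward 1, and was followed by loess within each array. Under it the median of the 7 after 120 min was 1.02. The count after 15 min was 3 of 7 under it, likewise when loess was replaced by median centring, and also if both RNAs had to be well above background on both arrays.

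**Figure D1:**
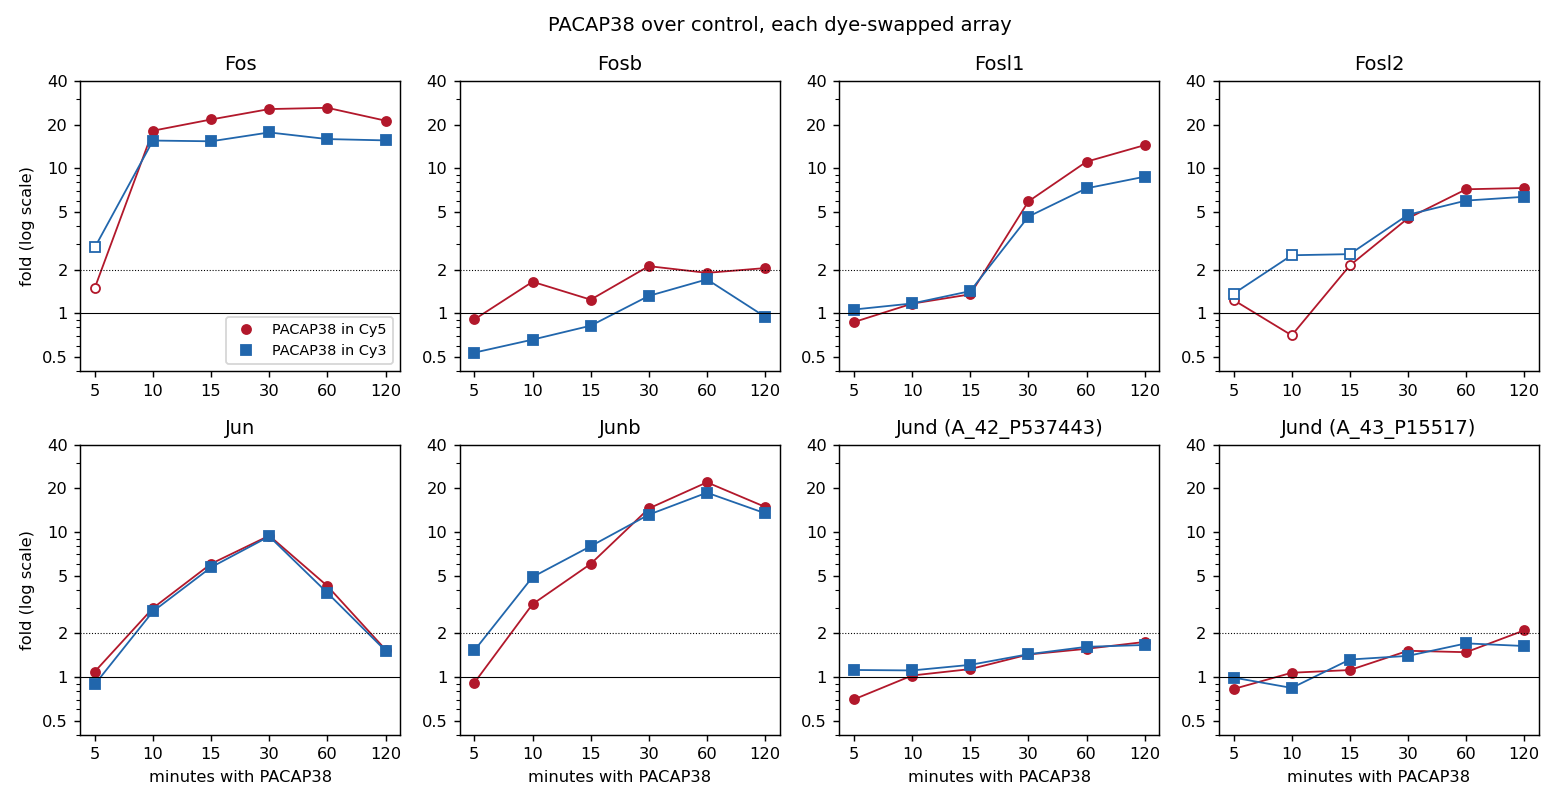
Fold of PACAP38 over control (vertical axis, log scale) against minutes of treatment for the 8 probes. Circles are the array with PACAP38 in Cy5 and squares the array with PACAP38 in Cy3, open symbols mark time points with an RNA that neither array showed well above background, the solid line is 1 and the dotted line 2. Fos is already at 18.2 and 15.5 after 10 min, Jun peaks after 30 min and Junb after 60 min, while Fosl1 stays below 2 up to 15 min.

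Fos, the partner that gives its name to the Fos family and the textbook immediate early gene, was the gene with the largest measured fold after 10 min in the processed signals. Neither of its RNAs was well above background after 5 min, so that no fold is given there. After 10 min its fold was 18.2 and 15.5, after 15 min 21.7 and 15.4, after 30 min 25.6 and 17.7, after 60 min 26.1 and 15.9, and after 120 min 21.3 and 15.6. From 10 min on both RNAs were well above background on both arrays, and the ranges of neighboring time points overlapped. Under normexp with loess the fold of Fos was smaller and not even, with 3.32 after 10 min, 6.70 after 15 min, 9.49 after 30 min, 11.65 after 60 min and 4.80 after 120 min. In the order of processed fold among the probes counted as higher, Fos was 1 of 27 after 10 min, 4 of 37 after 15 min, 14 of 102 after 30 min, 22 of 357 after 60 min and 45 of 799 after 120 min.

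The even processed fold of Fos stood on signals that were not even. A level here is the processed signal divided by the 75th percentile of its channel, and levels are compared only within a probe. The PACAP38 level of Fos, as the geometric mean of both arrays, was 4.83 after 10 min, 13.1 after 15 min, 22.5 after 30 min, 23.1 after 60 min and 5.99 after 120 min. The control level took the same course, with 0.303 and 0.269 after 10 min, 0.739 and 0.686 after 15 min, 0.921 and 1.21 after 30 min, 0.967 and 1.32 after 60 min, and 0.294 and 0.361 after 120 min. After 60 min the control level of Fos was thus 3.95 times that after 10 min (3.19 and 4.90 on the arrays), and after 120 min 1.14 times (0.968 and 1.34). Between 60 and 120 min, which share a slide, the log2 fold differed by -0.16 (-0.29 and -0.03 on the arrays), against -1.28 under normexp with loess. Fos after 120 min kept 85.6% of its peak fold in the processed signals, with the peak after 30 min, and 41.2% under normexp with loess, with the peak after 60 min.

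**Figure D2:**
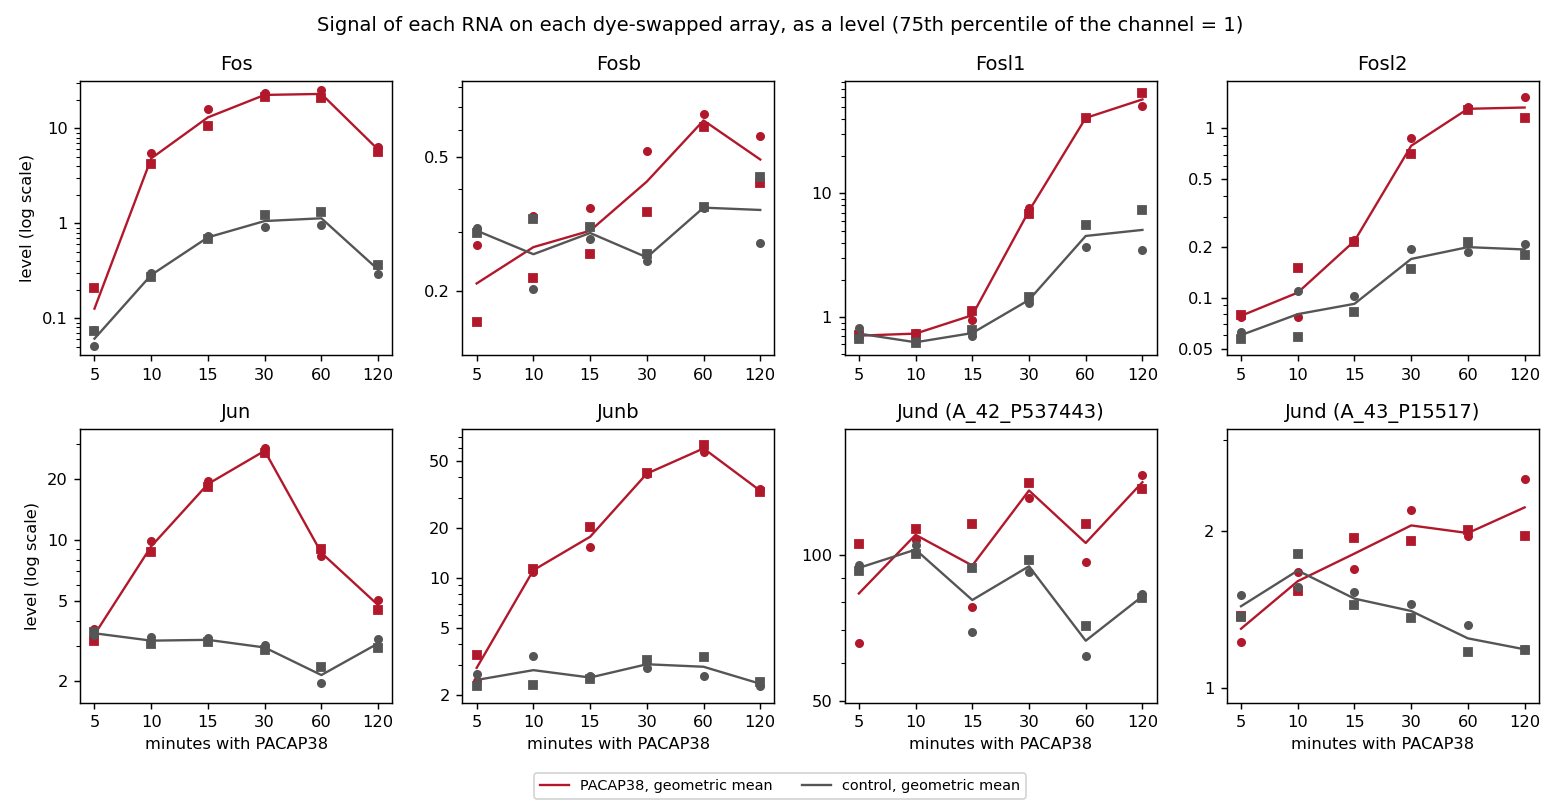
Level of PACAP38 RNA (red) and control RNA (gray) for the 8 probes against minutes of treatment, on log axes that differ between panels. Circles are arrays with PACAP38 in Cy5, squares arrays with PACAP38 in Cy3, and lines join geometric means. The control lines of Fos, Fosl1 and Fosl2 follow the PACAP38 lines, while those of Jun and Junb lie within a factor of 1.61 and 1.31. On no array was the control well above background for Fosl2 at 5, 10 and 15 min and for Fos at 5 min.

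Fosb encodes FosB, whose full form has an activation domain that a shorter splice form lacks, and which of these forms the single probe reads was not determined here. Fosb was measured at every time point in both RNAs and never counted. Its fold was 0.910 and 0.537 after 5 min, 1.65 and 0.660 after 10 min, 1.24 and 0.823 after 15 min, 2.12 and 1.32 after 30 min, 1.90 and 1.72 after 60 min, and 2.05 and 0.948 after 120 min. The arrays lay on opposite sides of 1 at 10, 15 and 120 min, and only at 30 and 60 min were both above 1. Its PACAP38 level was lowest after 5 min, at 0.211, and highest after 60 min, at 0.639, a factor of 3.03, against 1.32 for the signal after normexp, loess and scaling between channels. The control level stayed between 0.252 and 0.354.

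Fosl1 encodes Fra-1, a Fos protein without a strong activation domain that in many cells comes after Fos. The fold was 0.872 and 1.06 after 5 min, 1.17 and 1.17 after 10 min, and 1.35 and 1.42 after 15 min. It was 5.92 and 4.65 after 30 min, 11.1 and 7.29 after 60 min, and 14.5 and 8.76 after 120 min, its peak. The values of the arrays at 60 and 120 min overlapped. Under normexp with loess the fold of Fosl1 was 3.27 after 30 min, 7.95 after 60 min and 9.33 after 120 min. With median centring in place of loess it was 8.125 after 60 min and 7.968 after 120 min. The step from 15 to 30 min, on a shared slide, was 1.92 on the log2 scale (2.13 and 1.71), the widest of its within-slide steps. Its PACAP38 level went from 0.707 after 5 min to 57.6 after 120 min, a factor of 81.5, against 32.1 for the signal after normexp, loess and scaling between channels. The control level went from 0.735 after 5 min to 4.53 after 60 min and 5.07 after 120 min, 6.17 times (4.48 and 8.48) and 6.90 times (4.28 and 11.1) its level after 5 min. Without any normalization, the mean scanner intensity of the control at the Fosl1 spot was 75.7 and 69.2 after 5 min, 267 and 533 after 60 min, and 217 and 610 after 120 min.

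Fosl2 encodes Fra-2, the closest relative of Fra-1. Neither RNA was well above background after 5 min, and after 10 min PACAP38 was above it on 1 array only, with array readings of 0.706 and 2.52. After 15 min the control was not well above background on either array and PACAP38 was at least 1.78-fold higher, while Fosl2 was counted by its array readings of 2.14 and 2.56. The fold was 4.53 and 4.79 after 30 min, 7.17 and 6.00 after 60 min, and 7.32 and 6.37 after 120 min. The values of 60 and 120 min overlapped. The control level of Fosl2 was 0.0601 after 5 min, below the level called well above background, and 0.199 after 60 min. Under normexp with loess the fold of Fosl2 was 1.13 after 15 min, 1.48 after 30 min, 2.24 after 60 min and 2.03 after 120 min, so that it passed the 2-fold limit at 60 and 120 min only. When loess was replaced by median centring the mean fold was 2.25 after 60 min and 1.91 after 120 min, and Fosl2 was counted at no time point, since it did not reach the limit on both arrays.

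Jun encodes the founding Jun protein, which can form AP-1 by itself and drives its own gene in many cells. Its fold was 1.09 and 0.891 after 5 min, 2.99 and 2.84 after 10 min, 6.04 and 5.71 after 15 min, 9.44 and 9.33 after 30 min, 4.24 and 3.81 after 60 min, and 1.55 and 1.52 after 120 min. The arrays differed little beside the steps between time points. The fold after 120 min was 16.3% of that after 30 min, and 20.3% under normexp with loess. After 30 min the separate spots of the Jun probe read 8.99 to 9.85 on the first array and 8.82 to 10.4 on the second, with 9 spots kept on each. After 120 min they read 1.48 to 1.64 and 1.46 to 1.58, so that the spots of both times did not overlap. Spots of 1 array share their pools and hybridization, so their spread does not cover differences between pools or slides. The PACAP38 level was 3.41 after 5 min, 27.6 after 30 min and 4.77 after 120 min. The control level was between 2.94 and 3.46 at 5 time points and lowest after 60 min, at 2.15, with 1.97 and 2.35 on the arrays.

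Junb encodes a Jun protein that can restrain the activity of Jun and pairs with Fos proteins. Its fold was 0.915 and 1.53 after 5 min, 3.18 and 4.89 after 10 min, 6.03 and 7.98 after 15 min, 14.5 and 13.2 after 30 min, 22.0 and 18.7 after 60 min, and 14.9 and 13.5 after 120 min. At 30 and 120 min the arrays overlapped, and after 60 min both were above them. The PACAP38 level was 2.89 after 5 min, 59.5 after 60 min and 33.2 after 120 min. The control level of Junb was between 2.32 and 3.04, a factor of 1.31. After 120 min Junb kept 69.9% of its peak fold, and 60.7% under normexp with loess.

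Jund encodes the Jun protein that most cells make without a stimulus. On the brighter probe its fold was 0.702 and 1.12 after 5 min, 1.02 and 1.11 after 10 min, 1.14 and 1.21 after 15 min, 1.43 and 1.44 after 30 min, 1.57 and 1.62 after 60 min, and 1.75 and 1.66 after 120 min. On A_43_P15517, printed above, it was 0.828 and 0.992 after 5 min, 1.07 and 0.842 after 10 min, 1.12 and 1.32 after 15 min, 1.52 and 1.40 after 30 min, 1.48 and 1.71 after 60 min, and 2.10 and 1.64 after 120 min. Both probes gave folds above 1 on both arrays from 15 min on and never passed the 2-fold limit on both. Their log2 folds differed by 0.0887 as the root mean square over the 6 time points, the smallest difference of any pair among the 6 probes measured in both RNAs at every time point. That between Fosb and Junb, at 2.73, was the largest of these pairs.

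In the processed signals the first counted time point was 10 min for Fos, Jun and Junb, 15 min for Fosl2 and 30 min for Fosl1. The peak was after 30 min for Jun and for Fos, where it did not stand apart from its neighbors, after 60 min for Junb and after 120 min for Fosl1 and Fosl2. For Fosl1 and Fosl2 the arrays of 60 and 120 min overlapped. Under normexp with loess the peaks of Fos and Fosl2 were both after 60 min, and those of Jun, Junb and Fosl1 were where they had been. With median centring in place of loess the peak of Fosl1 was after 60 min, at 8.125 against 7.968 after 120 min. Over the 20 counted folds with both RNAs well above background on at least 1 array, the fold under normexp with loess was 0.198 to 0.883 times the processed fold, with a median of 0.702, and under median centring the median was 0.639. The smallest ratios were those of Fos after 10 and 120 min.

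**Figure D3:**
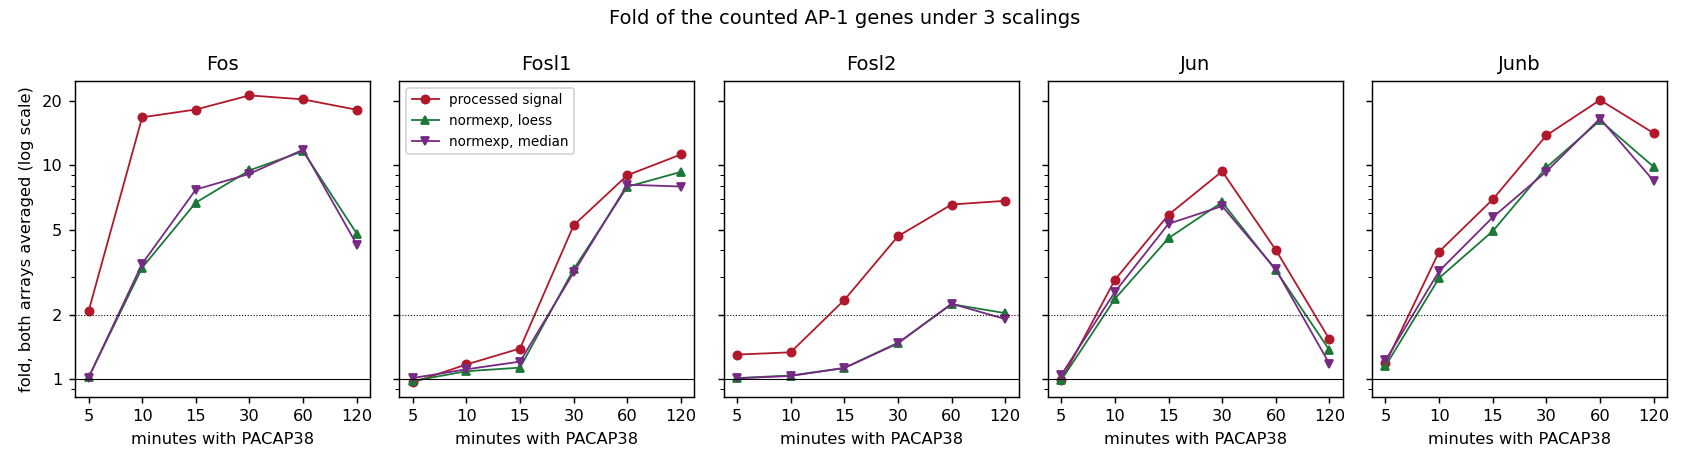
Fold of PACAP38 over control averaged over both arrays (log scale) against minutes of treatment for the 5 AP-1 genes counted at any time point, from the processed signals (circles) and from scanner intensities after normexp with loess (upward triangles) or median centring (downward triangles). The solid line is 1 and the dotted line 2. Fos is flat from 10 to 120 min only in the processed signals, and Fosl2 reaches at most 2.25 under normexp.

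The change of the control RNA was followed over all probes. Relative to 5 min, with the control well above background at both times, 0.616% of 15093 probes had a control level at least 2-fold higher on both arrays after 60 min. Among the 201 such probes counted as higher after 60 min, 9 (4.48%) did. Fosl1 was one of them, and Nr4a1, Nr4a2, Dusp1, Syt4, Itpkc and Ypel4, named after their values were seen, were others. Relative to 10 min, which brings in Fos, the share after 60 min was 0.780% of 15634 probes and 9 of 217 counted probes (4.15%), with Fos and Fosl1 among them. The control levels of Jun, Junb, Jund and Fosb after 60 min were 0.622 to 1.2 times those after 5 min. Time and slide cannot be told apart between slides, and a cause for the control levels was not tested. After normexp, loess and scaling between channels, the control signal of Fos differed over the time points by a factor of 1.86, that of Fosl1 by 3.63 and that of Fosl2 by 1.13.

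Over all 6 time points, a slope of the dye-averaged log2 fold on log2 time was fitted with limma across 18720 probes. At a Benjamini-Hochberg adjusted p below 0.05, 173 probes rose (0.924%) and 71 fell (0.379%). Fosl1 rose by 0.90 per doubling of time (SE 0.10, n = 6 time points, adjusted p = 0.0349), Fosl2 by 0.62 (SE 0.080, adjusted p = 0.0371) and both Jund probes by 0.21 (SE 0.027, adjusted p = 0.0371) and 0.24 (SE 0.030, adjusted p = 0.0371). The slope of Junb was 0.80 (SE 0.16, adjusted p = 0.0654) and that of Fosb 0.25 (SE 0.072, adjusted p = 0.0922), and Fos and Jun had adjusted p-values of 0.190 and 0.780 in limma. With slide as a random block, since time points share slides in pairs, the slopes of Junb (adjusted p = 0.0330 in limma) and Fosb (adjusted p = 0.0451 in limma) passed, and that of Junb passed also among probes with both RNAs well above background at every time point (adjusted p = 0.0437 in limma). Both settings called more probes as a whole. With the block 2831 of 18720 slopes passed and among the filtered probes 976 of 13939, against 244 of 18720 in the main fit. The slope of Fosl2 runs through ratios at 5, 10 and 15 min whose control was not well above background on any array, and under normexp with loess it was 0.28 (adjusted p = 0.0554 in limma). The calls are fragile: in limma Fosl1 passed under 7 of 14 other settings, the Jund probes under 4 of 14 each and Fosl2 under 3 of 13, and leaving out 10, 15, 30, 60 or 120 min ended all of them, with adjusted p-values of Fosl1 up to 0.121. The mean log2 fold against 0 passed for 0 of 18720 probes in limma, against 1769 at an unadjusted p below 0.05. Fos had the sixth smallest p (mean 3.71, SE 0.46, adjusted p = 0.283), and without 5 min, where neither of its RNAs was well above background, its mean was 4.24 (adjusted p = 1.26e-05 in limma), among 14 probes that passed. Without any other single time point the adjusted p of Fos was between 0.415 and 0.772 in limma, and under normexp with loess its mean was 2.26 (adjusted p = 0.549 in limma). On the arrays of 1 dye orientation alone, the means of Fos (adjusted p = 0.0159 with PACAP38 in Cy5 and 0.00559 in Cy3, limma) and Junb (adjusted p = 0.0484 and 0.0166, limma) passed in both, and those of Fosl2 (adjusted p = 0.0202, limma) and the brighter Jund probe (adjusted p = 0.0419, limma) with PACAP38 in Cy3 only. In all, 956 of 18683 probes passed with PACAP38 in Cy5 and 2140 of 18688 with it in Cy3. A mean in 1 orientation cannot be told apart from a constant dye difference of the probe.

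AP-1 proteins also pair with other proteins that carry a basic region and a zipper. Of 13 such partner genes on the array, 0 were counted at 5 and 10 min, against 0% and 0.0659% of all probes counted as higher. As higher, 1 was counted after 15 min (0.0902% of all probes), 2 after 30 min (0.249%), 3 after 60 min (0.871%) and 3 after 120 min (1.95%), and 1 was counted as lower after 120 min (1.53%). Atf3, a partner of Jun induced by stress and growth signals, read 5.09 and 2.77 after 15 min with the control above background on 1 array, 19.0 and 12.2 after 30 min, 26.2 and 14.7 after 60 min, and 20.9 and 12.2 after 120 min. Maff, a small Maf protein without an activation domain, was at least 2.23-fold higher after 30 min and read 16.3 and 7.02 after 60 min and 19.9 and 9.13 after 120 min, with the control above background on 1 array at both times. Mafk, of the same kind, read 2.85 and 2.68 after 60 min and 4.27 and 4.34 after 120 min. Jdp2, a repressor that binds Jun proteins, was at least 2.26-fold lower after 120 min, with readings of 0.306 and 0.220, and stood at 0.891 under normexp with loess. Under the same scaling Atf3 stood at 1.36 after 15 min, below the 2-fold limit, and at 4.13 after 30 min, 11.4 after 60 min and 5.44 after 120 min. Maff stood at 1.13 after 30 min, 1.61 after 60 min and 1.84 after 120 min, and Mafk at 1.32 and 1.49 at the latter times, all below the limit.

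Of 16 kinases and transcription factors known to act upstream of Fos and Jun, among them Mapk3, Mapk8, Elk1, Srf and Creb1, 0 were counted at any time point. Of all probes at most 1.95% were counted as higher and 1.53% as lower, at 120 min, so that 0 of 16 is near the background. After 120 min Srf, which binds the serum response element of Fos, was at 0.585 and 0.573 of the control, and Creb1, which binds the cyclic AMP response element, at 0.633 and 0.569. The median log2 fold of these 16 genes was -0.082 after 120 min, against 0.020 for all genes. Of 8 genes for cofactors and for the breakdown of Fos and Jun proteins, such as Cops5 and Gsk3b, 0 were counted at any time point, which is near the same background, with a median log2 fold of -0.0026 after 120 min.

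Of 22 textbook AP-1 target genes, 9 had an RNA well above background after 5 min and 13 after 120 min. None were counted up to 30 min, 1 was after 60 min (against 0.871% of all probes counted as higher) and 8 were after 120 min (against 1.95%), all higher. Mmp13, collagenase 3, read 4.29 and 4.45 after 60 min and 11.6 and 12.6 after 120 min. Mmp10, a stromelysin, was at least 10.0-fold and Nts, the neurotensin precursor, at least 9.96-fold higher after 120 min, with controls not well above background on either array. Plaur, the urokinase receptor, read 20.02 and 6.45 with the control above background on 1 array. For Il6 the bound, an average over both arrays, was 5.41-fold, while its arrays read 3.21 and 33.6, so that 1 array lay below it. Gclc, for glutathione synthesis, read 3.86 and 4.95, Hbegf, a ligand of the EGF receptor, 3.01 and 2.12, and Timp1, an inhibitor of metalloproteinases, 2.19 and 2.05. Vegfa, with 2.44 and 1.87, and Th, the rate-limiting enzyme of catecholamine synthesis, with 2.15 and 1.52, were not counted. The median log2 fold of the 22 genes was 0.24 after 60 min and 0.78 after 120 min, against 9.35e-05 and 0.020 for all genes, and 0.52 after 120 min under normexp with loess, where Mmp13 alone of the 8 kept 2-fold, at 2.98.

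**Figure D4:**
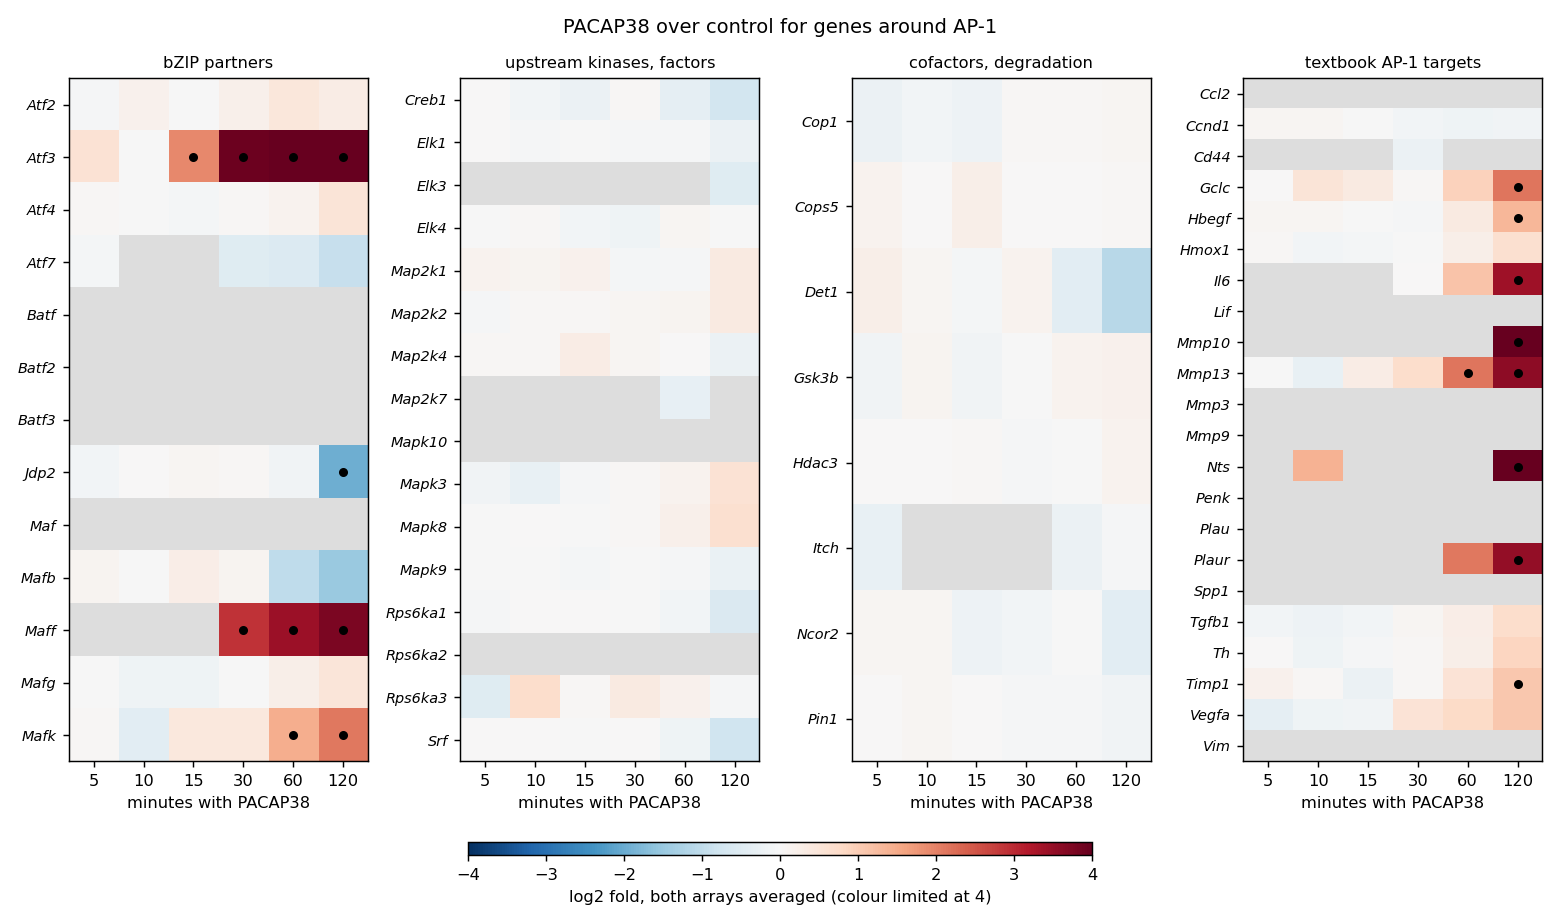
Log2 fold of PACAP38 over control, averaged over both arrays (color, limited at 4), against minutes of treatment for genes around AP-1 in 4 lists. Black dots mark counted genes, gray cells have neither RNA well above background on either array, and cells with 1 RNA below it show the measured ratio. The counted genes are Atf3, Maff, Mafk and Jdp2 among the partners and 8 target genes, of which only Mmp13 is counted after 60 min.

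For Fosl1, Jun and Junb, the counted members measured in both RNAs at every time point, the genes most like each were those with the smallest root mean square difference of log2 folds over the 6 time points, among 9595 probes measured likewise. Jun was nearest to Arc, a cytoskeletal protein of active synapses (0.48), Junb to the nuclear receptor Nr4a1 (0.43), and Fosl1 to the nuclear protein Csrnp1 (0.36). The next in order were Crem and Tiparp for Fosl1, Ier2 and Gadd45b for Jun, and Dusp1 and Egr4 for Junb. No nearest gene is given for Fos and Fosl2, since their readings at 5 min, and those of Fosl2 also at 10 and 15 min, are not measured folds. Each array holds both genes of a comparison.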

How the data were processed

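The arrays were Agilent whole rat genome arrays (4x44K) with 2 colors, 12 in all, 4 per slide: 5 and 10 min shared slide 1, 15 and 30 min slide 2, 60 and 120 min slide 3. The authors scanned them and ran Agilent's Feature Extraction (version 12.0.3.1 per the file headers, 11.0.1.1 per the submitters' processing notes). The deposited processed intensity of each color is background-subtracted and dye-normalized, beside mean and background intensity of the scanner, a spot p-value for the log ratio and flags. The deposited log10 ratios, from the authors' software, are of Cy5 over Cy3 and were used as an alternative, though they equal the ratios of the processed intensities.

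Log2 ratios of PACAP38 to control were taken from processed intensities and turned by dye. The 1639 control spots and 197 to 267 outlier spots per array were left out, and spots of 1 probe averaged. Both arrays enter a fold as their geometric mean. Of several probes of a gene the brightest is reported. Where no array of a time point showed 1 of the RNAs well above background, no fold is given but a bound, where that is above 1, and readings of single arrays are named as such. The bound divides the brighter RNA's mean by the dim signal or the lowest signal well above background, whichever is higher, per channel after Aquantile. It is averaged over both arrays, so that a single array can read below it. Positions are on rn4. Of 41012 probes 19277 matched RefSeq by accession, and 1599 names were updated.

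Fits used limma 3.58.1 in R 4.3.3 on dye-averaged ratios of the 6 time points, for 18720 probes, and were tested on simulated data. Other steps used Python 3.11.15, pandas 2.3.3, numpy 2.4.6 and matplotlib 3.10.9. Alternatives were normexp (offset 50) with loess or median centring, other limits, 1 dye alone, filters, the slide as a block, time in minutes and leaving out each time point. Genes named by rule are all members, list genes counted at any time (at most 8 per list) and the 3 nearest genes of each counted member, not given for Fos and Fosl2, which were not measured at every time point. The other genes named from the lists or for their control levels were chosen after their values were seen. The members and lists were chosen with earlier results of these data known. In the list of upstream kinases and factors, 1 gene is not reported here and was left out of its counts and median. Proteome data were not analysed here.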

Additional observations from a re-analysis of the deposited data

Results flagged for a closer look

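Fosb had a fold of 0.699 at 5 min, with both arrays below 1 (0.910 and 0.537), while both arrays were above 1 at 2 other time points, 30 and 60 min. On the Jund probe A_43_P15517 the fold at 5 min was 0.906, with both arrays below 1 (0.828 and 0.992), against both above 1 at 4 other time points. The brighter Jund probe read 0.702 and 1.12 at 5 min, on opposite sides of 1, and so does not show this. Both results stand out because all arrays of 1 time point lie on the opposite side of those of others. Both arrays of a time point are technical readings of the same pools. The spot p-values at 5 min were 0.63 and 0.0023 for Fosb, and 0.19 and 0.95 for the Jund probe A_43_P15517. Neither fold passed the 2-fold limit. The difference of 5 min from the later time points was not tested by itself. The slope over all 6 time points was 0.25 for Fosb (adjusted p = 0.0922 in limma) and 0.24 for this Jund probe (adjusted p = 0.0371 in limma), the latter without a pass when any 1 time point was left out. Under normexp with loess the values at 5 min were 0.939 for Fosb and 0.952 for Jund.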

How the results depend on the processing

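The counts of AP-1 genes kept within 1.5 times the reported ones in 59 of 60 comparisons with another setting. With a 4-fold limit 1 gene in place of 3 was counted at 10 min. Of the comparisons, 6 used the deposited log ratios, which equal the ratios used here and could not differ. At 5 min every setting counted 0 genes. A 1.5-fold limit raised the count from 5 to 7 after 60 min, with Fosb and Jund, and from 4 to 6 after 120 min, with Jun and Jund. The count of probes with a mean log2 fold other than 0, which was 0, became 956 with PACAP38 in Cy5 alone and 2140 with it in Cy3 alone, and lay between 0 and 14 with 1 time point left out. The count of slopes, 244, became 107 under normexp with loess, 1 with median centring, 0 without the filter on dim probes (6563 at an unadjusted p below 0.05 in limma), 976 with both RNAs above background at every time point, 2831 with slide as a random block, 77 and 128 with Cy5 or Cy3 alone, 5616 with time in minutes, and 0 to 415 with 1 time point left out. The cause was not tested. Signs turned for the mean of Fosb in Cy3 alone (-0.11) and for the slope of Jun (0.13) without 5 min (-0.30; 1 time point left out gives -0.30 to 0.63) and in minutes (-0.0054). None of these 3 had passed the test. With slide as a block the slopes of Junb (adjusted p = 0.0330 in limma) and Fosb (adjusted p = 0.0451 in limma) passed as well. Of the log2 folds of the members, 30 of 46 moved by more than the spread between the arrays under normexp with loess and 28 of 46 with median centring, and none of them changed the direction of a counted fold. Signal over background limits Fos at 5 min and Fosl2 at 5, 10 and 15 min. Each ratio already pairs PACAP38 with its own control on 1 array. No paired analysis was possible by replicate number because both arrays of a time point carry identical pools and their numbers mark only the dye orientation.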
